A study of Homo sapiens with 12 samples.

Results

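The genes described here encode the amino acid transporters of the SLC1A, SLC6A, SLC7A, SLC36A, SLC38A and SLC43A families. They were taken as the genes whose symbol begins with SLC, one of these family codes and a number, and that are measured by a probe set naming this gene alone. SLC7A11, the cystine and glutamate exchanger, was left out of the set and is given only as a related gene. This gave 56 of the 18417 genes tested. Of these, 55 are transporter genes, and SLC7A6OS is no transporter gene but matches by its letters, since it is named for its position on the opposite strand of SLC7A6. For a gene with several probe sets, the one with the highest mean over the 12 arrays was used.

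RNA levels were read on Affymetrix arrays from AsPC1 and BxPC3, established human cell lines from pancreatic ductal adenocarcinoma, and from AsPC1-R and BxPC3-R, a derivative of each that is resistant to cisplatin, a platinum drug that crosslinks DNA. Each of the 4 groups has 3 arrays. AsPC1-R was kept in medium with 1.67 µM cisplatin and BxPC3-R in medium with 0.60 µM, while the parental lines were grown without it. All cells were harvested from subconfluent cultures, and the passage before harvest held no cisplatin for the derivatives either, so the drug was absent from all groups at the end. Each derivative is a single line, so a difference from its parent cannot be told apart from a difference particular to that derivative. The doses also differ between the derivatives. Nothing in the labels says that samples of a group are separate cultures, so each p-value reflects the spread among the deposited samples alone, and that spread may be technical.

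Amino acids cross membranes only with the help of carriers. SLC1A proteins take up glutamate and aspartate or exchange small neutral amino acids such as glutamine, and SLC6A proteins use the sodium and chloride gradients to concentrate amino acids, taurine, creatine or neurotransmitters. SLC7A proteins carry cationic amino acids by themselves or, as light chains bound to the heavy chains SLC3A2 or SLC3A1, exchange large neutral and cationic amino acids. SLC38A proteins take up glutamine and other neutral amino acids with sodium, SLC36A proteins move small amino acids with protons, and SLC43A proteins let large neutral amino acids pass down their gradient. Tumour cells draw on these carriers for glutamine, leucine, arginine and cystine, and several of the genes are known targets of ATF4, the transcription factor of the amino acid response.

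Levels are deposited log2 values, so a step of 1 is a factor of 2, and array medians lay between 6.48 and 6.65. A probe set also gives a reading where its gene is missing. CDKN2A and SMAD4, known deletions of BxPC3, gave readings of 6.22 and 4.70 in that line, against 7.44 and 9.90 in AsPC1. In BxPC3-R the deleted CDKN2A read 5.75 and was itself called lower (-0.47, adjusted p = 0.0249), a call that leaving out any of 4 arrays ended (highest adjusted p 0.125). The higher of these readings, 6.22, is used as a common mark, although the reading without transcript differs from probe set to probe set. Changes within or out of levels under it are therefore uncertain in size. Of the 56 genes, 18 stayed under 6.22 in every group, and 35 reached 6.55, the median of all values, in at least 1 group and are called expressed below. Apart from these common marks, levels are compared between groups for 1 gene and not between genes, since probe sets differ in brightness. All 8 markers of pancreatic ductal epithelium were expressed, with a mean between 10.2 and 10.5 on each array. Among markers of other cell types, 4 of 7 for fibroblasts, 1 of 5 for leukocytes, 2 of 4 for endothelium, 1 of 4 for acinar or endocrine pancreas and 4 of 4 for neurons and glia were expressed, the last with means of only 6.15 to 6.70. Of the leukocyte markers, PTPRC read 3.19 to 3.27 in all 4 groups and CD68, the expressed one, which is also made in other cells, read 8.53 to 10.83.

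One array stood apart. Of 72 genes at least 16-fold higher in AsPC1 than in BxPC3-R, 65 were highest on BxPC3 replicate 2 among the 3 BxPC3 arrays, with a median level of 6.70 there and of 5.88 and 5.77 on the others. Results that rest on this array are given with and without it.

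AsPC1-R was set against AsPC1 first, to see which carriers change in that derivative. The amino acid transporter SLC6A14 rose strongly, and smaller rises were seen for the exchanger SLC1A4, the proton-coupled carriers SLC36A4 and SLC36A1, the light chain SLC7A6 and the lysosomal arginine carrier SLC38A9. The proline carrier SLC6A20 fell. By limma at an adjusted p under 0.05, 8 of the 56 genes were higher in AsPC1-R and 4 were lower. Among all tested genes 20.3% changed, 11.6% upward and 8.64% downward, so the share among these genes, 21.4%, lies near the background. Among the 35 expressed genes the share was 28.6%, against 27.4% of all expressed genes. The median change of the 56 genes was -0.09 against -0.05 for all genes, both on the log2 scale, and 1 gene changed at least 2-fold, where 2.33% of all genes did. The 3 arrays of AsPC1-R did not overlap with those of AsPC1 for 22 of the 56 genes, 39.3%, against 33.4% of all genes. At least a 1.5-fold change was found for 5 genes upward and 3 downward, and for 7.1% of all genes. Of the 4 genes called lower, SLC38A4 and SLC6A7 lay under 6.22 in both groups and SLC38A11 in AsPC1-R. SLC38A4 and SLC38A11 are among the 3 with at least a 1.5-fold fall. Of the 8 called higher, SLC1A4 and SLC6A14 lay under 6.22 in AsPC1. In these bulk samples, fewer cells with a transcript and less of it per cell cannot be told apart.

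In BxPC3-R, set against BxPC3, the falls were larger than in AsPC1-R. SLC6A14, the large neutral amino acid exchanger SLC7A8, the facilitative carrier SLC43A1, the cationic carrier SLC7A2, the glutamate carrier SLC1A3 and the taurine carrier SLC6A6 fell, and the glutamate carrier SLC1A1 and the neutral carriers SLC38A4 and SLC38A5 rose. Altogether 8 genes were higher and 9 lower, 30.4% of the 56, where 20.8% of all genes changed, 9.75% upward and 11% downward. A change of at least 1.5-fold was found for 3 genes upward and 6 downward, and for 7.64% of all genes. A change of at least 2-fold was found for 3 of the 56 genes and 2.32% of all genes. The median change was -0.00 over the 56 genes and 0.02 over all genes. The groups did not overlap for 22 of the 56 genes, 39.3%, against 38.2% of all genes. Among the 35 expressed genes 45.7% changed, against 28% of all expressed genes. Without BxPC3 replicate 2, 6 genes were higher and 6 lower, 21.4% of the 56 against 17.4% of all genes, so the share then lay nearer the background.

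Only SLC7A6 rose in both derivatives and only SLC6A20 fell in both, among the 56 genes at this threshold. SLC6A14 rose in AsPC1-R, from a level under 6.22, and fell in BxPC3-R. SLC38A4 did the opposite, but its fall in AsPC1-R lay wholly under 6.22. Over all genes, 1.27% rose in both, 1.1% fell in both, and 3.43% and 1.95% had these opposite directions. Another 6 genes rose and 2 fell in AsPC1-R alone at this threshold, 10.7% and 3.57% of the 56, against 6.92% and 5.59% of all genes. In BxPC3-R alone 6 rose and 7 fell, 10.7% and 12.5%, against 6.53% and 6.5% of all genes. As given above, fewer of the 56 genes passed in BxPC3-R without BxPC3 replicate 2. The remaining 31 genes, 55.4%, passed in neither derivative, against 66.7% of all genes. The change itself differed between the lines for 20 of the 56 genes, 11 with the higher value in AsPC1-R and 9 with the higher value in BxPC3-R. Over all genes the difference passed for 25.4%, 14.1% and 11.3% in these directions. At least a 2-fold difference was found for 4 of the 56 genes and for 6.28% of all genes. Among the 35 expressed genes the difference passed for 48.6%, against 33.8% of all expressed genes. Without BxPC3 replicate 2 it passed for 16 of the 56 genes, 28.6%, against 22.7% of all genes.

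**Figure D1:**
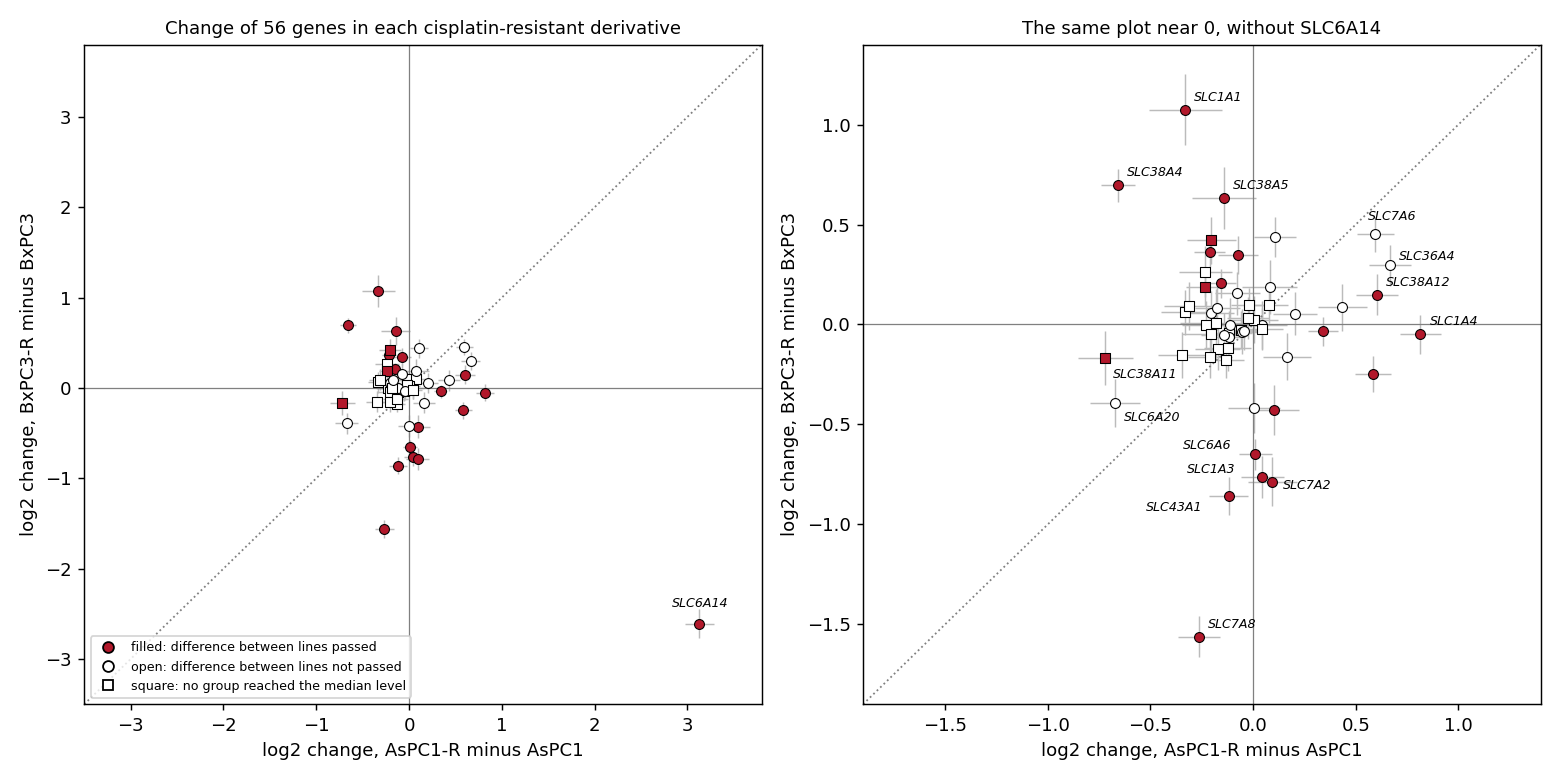
Log2 change of the 56 genes in AsPC1-R (x axis) and in BxPC3-R (y axis), each against its parental line, with bars for the standard error from limma (3 arrays per group), and an enlarged view of the same plot near 0 without SLC6A14. Filled points mark the 20 genes whose change differed between the lines, squares the genes with no group at the median level, and the dotted diagonal equal change in both. SLC6A14 lies alone at 3.13 and -2.61, and SLC7A6 and SLC36A4 lie near the diagonal on the side of rises.

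SLC6A14, on chromosome X, encodes a sodium and chloride coupled carrier that concentrates neutral and cationic amino acids in the cell. Its level was 3.97, 4.76 and 4.08 on the AsPC1 arrays and 7.54, 7.34 and 7.31 on the AsPC1-R arrays. It was 10.23, 10.34 and 10.23 in BxPC3 and 7.58, 7.78 and 7.62 in BxPC3-R. The parental lines thus hold the lowest and the highest arrays of this gene, the derivatives lie between them, and no 2 of the 4 groups overlap. The change was 3.13 in AsPC1-R (SE 0.16, adjusted p = 7.48e-09) and -2.61 in BxPC3-R (SE 0.16, adjusted p = 6.94e-08), and the 2 changes differed by 5.74 (SE 0.23, adjusted p = 5.85e-10). AsPC1 lay under the reading of the deleted CDKN2A, so the size of the rise is uncertain. Between the parental lines the difference was -6.00 (SE 0.16). Between the derivatives it was -0.26 (SE 0.16, adjusted p = 0.217), which did not pass although all BxPC3-R arrays lay above all AsPC1-R arrays. SLC6A14 had the largest log2 change of the 56 genes in both derivatives, and for this reason the 250 bases before its start in RefSeq (GRCh38.p14) are shown, from chrX:116436356-116436605 on the plus strand.
SLC6A14: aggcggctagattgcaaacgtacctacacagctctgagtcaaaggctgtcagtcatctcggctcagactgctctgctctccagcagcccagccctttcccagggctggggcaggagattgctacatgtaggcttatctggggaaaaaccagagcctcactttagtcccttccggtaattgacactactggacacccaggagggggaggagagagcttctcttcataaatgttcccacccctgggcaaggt
No base is in capitals, because none of the 3 motifs searched in the promoters (given further on) was found in the window of this gene.

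**Figure D2:**
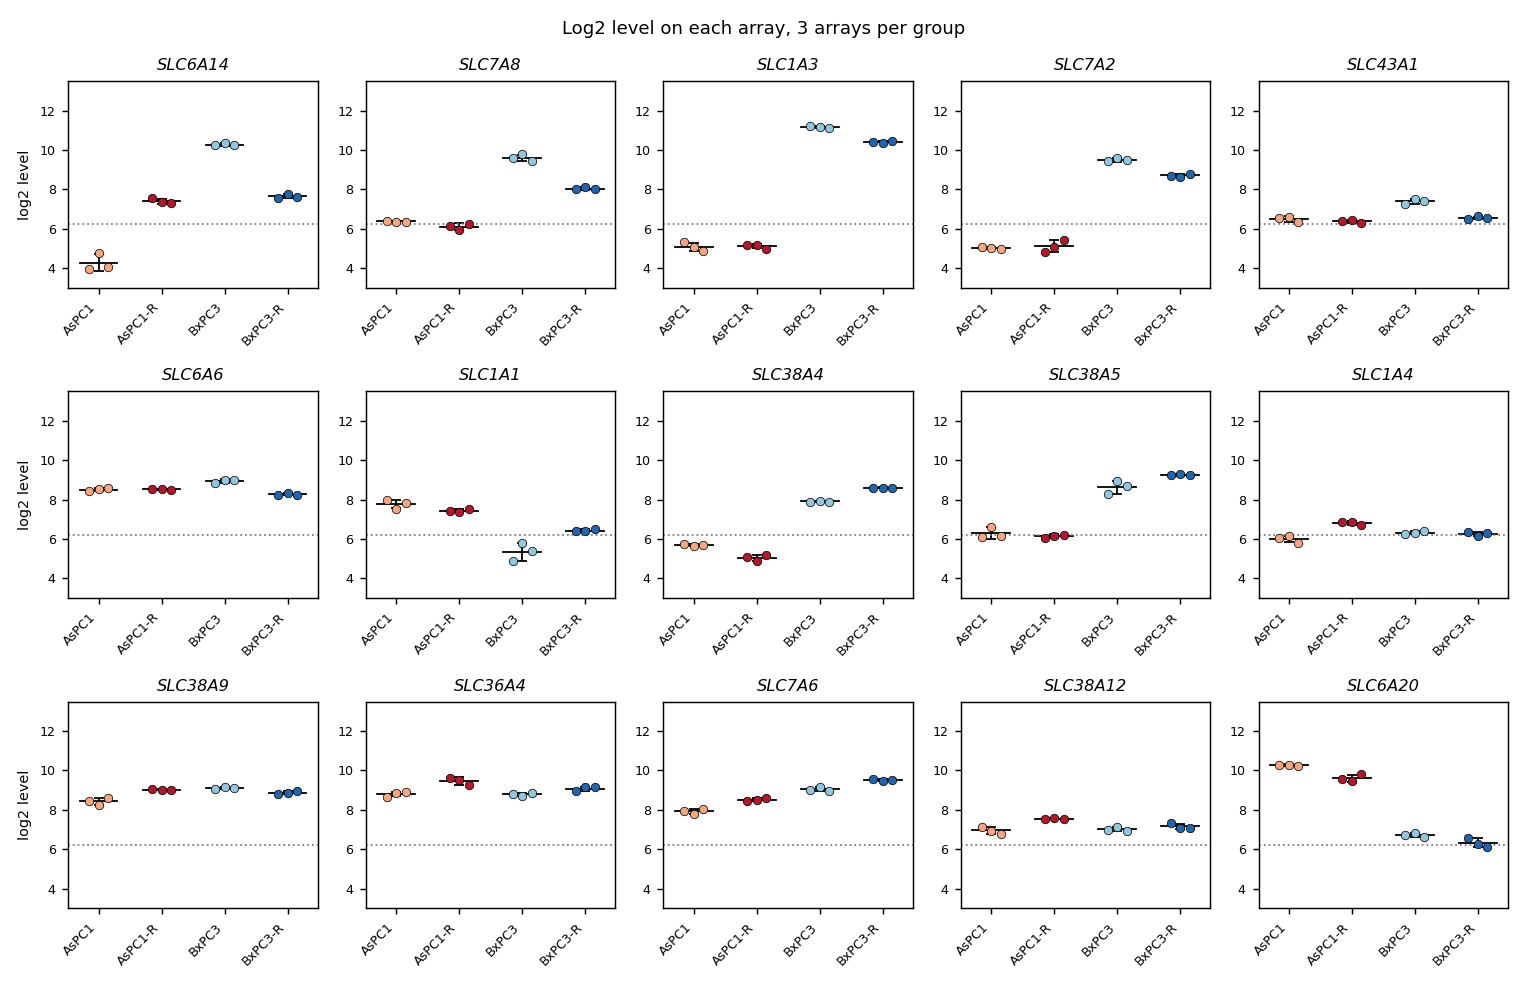
Log2 level on each array (y axis) of 15 genes in the 4 groups (x axis), with 3 points per group, a bar at the mean and whiskers of 1 SD. The dotted line marks 6.22, the mean reading of the deleted CDKN2A in BxPC3. SLC6A14 reads near 4 in AsPC1, above 10 in BxPC3 and between 7 and 8 in both derivatives, and SLC1A3, SLC7A2 and SLC7A8 are higher in the BxPC3 than in the AsPC1 cells.

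The glutamate and aspartate carriers of the SLC1A family were split between the lines. SLC1A3, a high-affinity glutamate carrier best known from astrocytes, read 5.30, 5.07 and 4.85 in AsPC1 and 5.17, 5.19 and 4.99 in AsPC1-R. In BxPC3 it read 11.21, 11.19 and 11.12, and in BxPC3-R 10.42, 10.37 and 10.44. The AsPC1 groups overlap at readings under 6.22, and every BxPC3-R array lies under every BxPC3 array. The fall in BxPC3-R was -0.76 (SE 0.10, adjusted p = 0.000119), against 0.04 (SE 0.10) in AsPC1-R, and the difference between these changes was 0.81 (SE 0.15, adjusted p = 0.000989). The AsPC1 readings lie under 6.22, where a fall may not be measurable.

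SLC1A1, the glutamate, aspartate and cysteine carrier of epithelia, had the reverse pattern. It read 7.95, 7.54 and 7.83 in AsPC1, 7.40, 7.39 and 7.54 in AsPC1-R, 4.87, 5.80 and 5.40 in BxPC3 and 6.38, 6.39 and 6.52 in BxPC3-R. All BxPC3-R arrays lie above all BxPC3 arrays and under all arrays of the AsPC1 groups, which themselves overlap. SLC1A1 rose by 1.07 in BxPC3-R (SE 0.18, adjusted p = 0.000555), from a level under 6.22, and the difference between the lines was -1.40 (SE 0.25, adjusted p = 0.00086). Without BxPC3 replicate 2, the highest of the BxPC3 arrays here, the rise was 1.29 (SE 0.15). The 3 other glutamate carriers, SLC1A2, SLC1A6 and SLC1A7, which are known from neurons, glia and retina, were not expressed.

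SLC1A4 and SLC1A5 exchange alanine, serine, cysteine and, in the case of SLC1A5, glutamine. SLC1A4 read 6.04, 6.14 and 5.81 in AsPC1 and 6.88, 6.85 and 6.71 in AsPC1-R. It read 6.27, 6.29 and 6.41 in BxPC3 and 6.37, 6.16 and 6.29 in BxPC3-R. The AsPC1-R arrays thus lie above the other 9. The rise was 0.82 (SE 0.10, adjusted p = 4.34e-05), from a level under 6.22, against -0.05 (SE 0.10) in BxPC3-R, and the changes differed by 0.87 (SE 0.14, adjusted p = 0.000384).

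For SLC1A5 the signs were opposite. Its arrays read 9.23, 9.08 and 9.25 in AsPC1, 8.97, 9.03 and 8.93 in AsPC1-R, 9.39, 9.42 and 9.38 in BxPC3 and 9.81, 9.72 and 9.74 in BxPC3-R, with no overlap between any 2 groups. The rise in BxPC3-R was 0.36 (SE 0.08, adjusted p = 0.00304), and the value in AsPC1-R, -0.21 (SE 0.08, adjusted p = 0.0662), did not pass. The difference between the lines, -0.58 (SE 0.11, adjusted p = 0.00115), did. A second, dimmer probe set of the gene gave -0.21 in AsPC1-R and 0.27 in BxPC3-R.

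In the SLC6A family, 9 genes for amino acid carriers, 8 for carriers of neurotransmitters, taurine, betaine and creatine, and SLC6A16, an orphan carrier gene, were measured. Only 3 of the 9 and 4 of the 8 were expressed. Besides SLC6A14, the expressed amino acid carriers were SLC6A20 and the glycine carrier SLC6A9. SLC6A20, which takes up proline and other imino acids, read 10.30, 10.29 and 10.25 in AsPC1 and 9.56, 9.45 and 9.81 in AsPC1-R. It read 6.71, 6.83 and 6.60 in BxPC3 and 6.58, 6.26 and 6.13 in BxPC3-R. In each line the derivative lies lower without overlap. The fall was -0.67 in AsPC1-R (SE 0.12, adjusted p = 0.00114) and -0.39 in BxPC3-R (SE 0.12, adjusted p = 0.0328), and the difference between them, -0.28 (SE 0.17, adjusted p = 0.258), did not pass. The fall in BxPC3-R ended near 6.22 and lost its call without BxPC3 replicate 1 (adjusted p = 0.0742), BxPC3 replicate 2 (0.121), BxPC3-R replicate 2 (0.109) or BxPC3-R replicate 3 (0.146), and when only the groups compared entered the fit (0.052). SLC6A9 read 7.51 ± 0.25 (SD, n = 3) in AsPC1, 7.40 ± 0.06 in AsPC1-R, 8.12 ± 0.15 in BxPC3 and 8.12 ± 0.22 in BxPC3-R and passed in neither derivative.

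SLC6A6 takes up taurine, an osmolyte. Its arrays read 8.42, 8.52 and 8.60 in AsPC1, 8.54, 8.52 and 8.50 in AsPC1-R, 8.84, 9.0 and 8.97 in BxPC3 and 8.26, 8.35 and 8.26 in BxPC3-R. The BxPC3-R arrays lie under all others and the AsPC1 groups overlap. The fall was -0.65 (SE 0.08, adjusted p = 4.45e-05) and its difference from the value in AsPC1-R was 0.66 (SE 0.11, adjusted p = 0.000564). The creatine carrier SLC6A8 read 8.63, 8.42, 8.20 and 8.26 as group means in the order AsPC1, AsPC1-R, BxPC3, BxPC3-R and passed in neither derivative. Its values were -0.21 in AsPC1-R and 0.06 in BxPC3-R. Further probe sets, which also name SLC6A10P and SLC6A10PB and were not tested, gave -0.48 and -0.44 in AsPC1-R. In BxPC3-R they gave 0.03 and -0.01. The GABA carrier SLC6A11 read 6.61, 6.54, 6.37 and 6.72 in that order. Its rise of 0.35 in BxPC3-R (adjusted p = 0.0195) lost its call without BxPC3 replicate 2 (0.0825), BxPC3-R replicate 1 (0.0724) or BxPC3-R replicate 3 (0.0685). The brain proline carrier SLC6A7, with means of 6.20 and 5.86 in AsPC1 and AsPC1-R, was at an adjusted p of 0.0483 for its fall in AsPC1-R, and the call was lost when any of 9 of the 12 arrays was left out (highest adjusted p 0.158) and under 5 other settings, both scalings among them.

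Among the cationic carriers of the SLC7A family, SLC7A1, the general arginine and lysine carrier, read 9.60 ± 0.07, 9.55 ± 0.14, 10.11 ± 0.12 and 10.08 ± 0.10 (SD, n = 3) in AsPC1, AsPC1-R, BxPC3 and BxPC3-R and passed in neither derivative. SLC7A2, an arginine carrier known from liver and from activated macrophages, read 5.06, 5.02 and 4.96 in AsPC1, 4.83, 5.07 and 5.42 in AsPC1-R, 9.42, 9.59 and 9.47 in BxPC3 and 8.68, 8.64 and 8.79 in BxPC3-R. The AsPC1 groups overlap at readings under 6.22 and all BxPC3-R arrays lie under all BxPC3 arrays. The fall was -0.79 (SE 0.12, adjusted p = 0.00033). The related SLC7A3 and SLC7A14 were not expressed.

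SLC7A5 and SLC7A8 are light chains that exchange large neutral amino acids such as leucine and bind SLC3A2. In the BxPC3 cells they moved apart. SLC7A5 read 10.19, 10.36 and 10.21 in BxPC3 and 10.86, 10.67 and 10.55 in BxPC3-R, and 9.53, 9.63 and 9.38 in AsPC1 and 9.59, 9.55 and 9.74 in AsPC1-R. The BxPC3 groups do not overlap and the AsPC1 groups do. The rise in BxPC3-R was 0.44 (SE 0.10, adjusted p = 0.00653). In AsPC1-R the value was 0.11 (SE 0.10), and the difference between the lines, -0.33 (SE 0.14, adjusted p = 0.114), did not pass.

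SLC7A8 read 9.57, 9.77 and 9.44 in BxPC3 and 7.99, 8.12 and 7.99 in BxPC3-R, and 6.37, 6.36 and 6.36 in AsPC1 and 6.16, 5.92 and 6.23 in AsPC1-R. Each derivative lies lower than its parent with no overlap. The fall in BxPC3-R was -1.56 (SE 0.10, adjusted p = 1.21e-07), a factor of 2.95, while the value in AsPC1-R was -0.26 (SE 0.10, adjusted p = 0.0856) at readings near 6.22. The difference between the lines was 1.30 (SE 0.14, adjusted p = 1.46e-05).

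SLC7A6 and SLC7A7 are light chains that exchange cationic for neutral amino acids with sodium, SLC7A6 in many tissues and SLC7A7 in the basolateral membrane of intestine and kidney. SLC7A6 read 7.96, 7.79 and 8.03 in AsPC1 and 8.46, 8.51 and 8.60 in AsPC1-R. It read 9.03, 9.18 and 8.96 in BxPC3 and 9.56, 9.46 and 9.49 in BxPC3-R. Each derivative lies above its parent with no overlap. The rise was 0.60 in AsPC1-R (SE 0.09, adjusted p = 0.000273) and 0.45 in BxPC3-R (SE 0.09, adjusted p = 0.00218). The difference between them was 0.15 (SE 0.13, adjusted p = 0.441). The neighbouring SLC7A6OS on the opposite strand, also on chromosome 16, rose by 0.34 in AsPC1-R (SE 0.07, adjusted p = 0.00404), with -0.04 (SE 0.07) in BxPC3-R.

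SLC7A7 read 10.09, 9.95 and 10.31 in AsPC1, 10.03, 10.21 and 10.12 in AsPC1-R, 6.70, 7.15 and 6.82 in BxPC3 and 6.62, 6.37 and 6.42 in BxPC3-R. The AsPC1 groups overlap, and they lie above both BxPC3 groups, which do not overlap. The fall of -0.42 in BxPC3-R (SE 0.13, adjusted p = 0.0281) was not stable. It lost its call when the arrays were centred on their medians (-0.39, adjusted p = 0.056), without BxPC3 replicate 2, the highest array of its group (-0.29, adjusted p = 0.129), and without BxPC3-R replicate 2 (0.107) or replicate 3 (0.0887). SLC7A9, the cystine and cationic amino acid light chain of kidney and gut, read 6.5, 6.58, 5.56 and 5.74 as group means in AsPC1, AsPC1-R, BxPC3 and BxPC3-R and passed in neither derivative.

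The proton-coupled SLC36A family has 4 measured members that lie on chromosomes 5 and 11, and 2 of them were expressed. SLC36A4, a high-affinity carrier of proline and tryptophan, read 8.68, 8.85 and 8.88 in AsPC1, 9.63, 9.52 and 9.26 in AsPC1-R, 8.79, 8.72 and 8.84 in BxPC3 and 8.96, 9.14 and 9.14 in BxPC3-R. The parental lines overlap and both derivatives lie above them. The rise passed in AsPC1-R (0.67, SE 0.10, adjusted p = 0.000344). The value in BxPC3-R was 0.30 (SE 0.10, adjusted p = 0.0571), and the 2 values did not differ beyond the threshold (0.37, SE 0.15, adjusted p = 0.0794).

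SLC36A1, which exports small amino acids from lysosomes, read 6.53, 6.26 and 6.74 in AsPC1 and 6.92, 6.87 and 7.05 in AsPC1-R. These arrays do not overlap, but the rise of 0.43 (SE 0.12, adjusted p = 0.0187) lost its call without AsPC1 replicate 2 (0.0746) or AsPC1-R replicate 3 (0.0742). It read 7.30 and 7.39 in BxPC3 and BxPC3-R. SLC36A3, whose expression is known from testis, read 4.82, 4.96 and 4.68 in AsPC1, 4.49, 4.67 and 4.68 in AsPC1-R, 4.54, 4.13 and 4.46 in BxPC3 and 4.89, 4.86 and 4.64 in BxPC3-R. All of these lie under 6.22, so its call in BxPC3-R (0.42, adjusted p = 0.0206) and its difference between the lines (-0.62, adjusted p = 0.0135) rest on readings under that mark. The first was at an adjusted p of 0.0964 without BxPC3 replicate 2 and lost its call also without BxPC3-R replicate 1 or BxPC3-R replicate 2 (lowest adjusted p 0.0782).

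The SLC38A family has 12 measured members, 10 of them expressed. SLC38A1, SLC38A2 and SLC38A4 are sodium-coupled carriers of small neutral amino acids and lie next to each other on chromosome 12. SLC38A1, a main route of glutamine uptake, read 12.63, 12.70 and 12.59 in AsPC1, 12.53, 12.40 and 12.53 in AsPC1-R, 12.62, 12.58 and 12.61 in BxPC3 and 12.84, 12.81 and 12.78 in BxPC3-R. The parental lines overlap, AsPC1-R lies under and BxPC3-R above its parent, and neither change passed (-0.15, adjusted p = 0.165, and 0.21, adjusted p = 0.0625). The difference between these changes was -0.36 (SE 0.10, adjusted p = 0.0192) and lost its call without BxPC3-R replicate 1 (0.0502) and with a further quantile normalization of the arrays (0.0749).

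SLC38A2, which amino acid starvation induces through ATF4, read 12.76, 12.83 and 12.83 in AsPC1, 12.73, 12.69 and 12.64 in AsPC1-R, 12.95, 12.77 and 12.91 in BxPC3 and 12.83, 12.82 and 12.79 in BxPC3-R. The arrays span only 12.64 to 12.95, and SLC38A2 passed in none of the comparisons. Its values were -0.12 in AsPC1-R (SE 0.08, adjusted p = 0.317) and -0.06 in BxPC3-R (SE 0.08, adjusted p = 0.666). The third neighbour, SLC38A4, known as an imprinted gene and from liver, read 5.74, 5.66 and 5.70 in AsPC1, 5.06, 4.89 and 5.18 in AsPC1-R, 7.88, 7.95 and 7.89 in BxPC3 and 8.61, 8.59 and 8.61 in BxPC3-R. No 2 groups overlap. It rose by 0.70 in BxPC3-R (SE 0.08, adjusted p = 3.51e-05). Its value of -0.66 in AsPC1-R (SE 0.08, adjusted p = 6.12e-05) lies wholly under 6.22. The difference between the lines was -1.35 (SE 0.12, adjusted p = 1.34e-06).

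SLC38A5, a carrier of glutamine, serine and glycine on chromosome X, lay well above 6.22 in the BxPC3 cells alone. It read 8.27, 8.92 and 8.67 in BxPC3 and 9.23, 9.29 and 9.24 in BxPC3-R, and 6.10, 6.63 and 6.14 in AsPC1 and 6.06, 6.17 and 6.22 in AsPC1-R. The BxPC3 groups do not overlap and the AsPC1 groups do. The rise in BxPC3-R was 0.63 (SE 0.16, adjusted p = 0.00948), and 0.78 (SE 0.15) without BxPC3 replicate 2. The difference between the lines was -0.77 (SE 0.22, adjusted p = 0.0188).

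Of the lysosomal members, SLC38A9 carries arginine and reports its level to mTORC1, the growth-controlling kinase complex. It read 8.47, 8.25 and 8.59 in AsPC1, 9.05, 9.02 and 8.99 in AsPC1-R, 9.07, 9.14 and 9.12 in BxPC3 and 8.80, 8.84 and 8.95 in BxPC3-R. AsPC1-R lies above AsPC1, and BxPC3-R lies under BxPC3. The rise in AsPC1-R was 0.58 (SE 0.09, adjusted p = 0.000344), the value in BxPC3-R was -0.25 (SE 0.09, adjusted p = 0.0684), and the difference between them was 0.83 (SE 0.13, adjusted p = 0.000246). SLC38A7, a lysosomal glutamine and asparagine carrier, read 6.94, 7.04, 7.66 and 7.23 as group means in AsPC1, AsPC1-R, BxPC3 and BxPC3-R. Its fall of -0.43 in BxPC3-R (SE 0.12, adjusted p = 0.0242) lost its call without BxPC3 replicate 2 (0.111) or replicate 3 (0.0513), or without BxPC3-R replicate 2 (0.0894) or replicate 3 (0.0684).

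SLC38A12, a less studied member, read 7.15, 6.92 and 6.79 in AsPC1, 7.54, 7.61 and 7.52 in AsPC1-R, 6.96, 7.14 and 6.95 in BxPC3 and 7.31, 7.10 and 7.08 in BxPC3-R. The AsPC1-R arrays lie above the other 9, and the rise was 0.60 (SE 0.10, adjusted p = 0.000781). Its difference between the lines, 0.46 (SE 0.15, adjusted p = 0.0335), lost its call when any of 8 arrays was left out (highest adjusted p 0.082). SLC38A11 read 6.36, 6.59 and 6.28 in AsPC1 and 5.97, 5.50 and 5.60 in AsPC1-R, and 4.81, 4.63 and 4.35 in BxPC3 and 4.42, 4.41 and 4.46 in BxPC3-R. Only the AsPC1 arrays lie above 6.22. The fall in AsPC1-R was -0.72 (SE 0.13, adjusted p = 0.00164) and ended under that level.

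Of the SLC43A family, which carries leucine and other large neutral amino acids without coupling to ions, SLC43A1 read 6.56, 6.58 and 6.34 in AsPC1, 6.40, 6.44 and 6.28 in AsPC1-R, 7.27, 7.52 and 7.42 in BxPC3 and 6.48, 6.62 and 6.52 in BxPC3-R. The BxPC3 arrays lie above all others and the AsPC1 groups overlap. The fall in BxPC3-R was -0.86 (SE 0.09, adjusted p = 1.86e-05) and the difference between the lines 0.74 (SE 0.13, adjusted p = 0.000951). SLC43A2 read 6.58, 6.74, 6.83 and 6.67 as group means in AsPC1, AsPC1-R, BxPC3 and BxPC3-R and passed in neither derivative. SLC43A3 was not among the genes tested, because its probe set also names PRG2.

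The parental lines were compared next, to see in which of these genes they differ. AsPC1 was higher than BxPC3 for 11 of the 56 genes and lower for 19, and 4 and 7 of them differed at least 2-fold. Of all genes 50.6% differed, 27.7% with the higher value in AsPC1 and 22.9% with the lower, and 11.1% at least 2-fold. The median difference was 0.05 over the 56 genes and 0.11 over all genes, and the groups did not overlap for 33 of the 56, 58.9%, against 54.3% of all genes. Of the 11 genes higher in AsPC1, 4 lay under 6.22 in both lines. Without BxPC3 replicate 2, 12 genes were higher and 18 lower, 53.6% of the 56 against 42% of all genes.

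The genes with the largest higher values in AsPC1 were SLC6A20 (a difference of 3.57, SE 0.12), SLC7A7 (3.23, SE 0.13) and SLC1A1 (2.42, SE 0.18), followed by SLC38A11 (1.81, SE 0.13), SLC7A9 (0.94, SE 0.14), SLC6A7 (0.58, SE 0.11), SLC6A18 (0.53, SE 0.13) and SLC36A3 (0.44, SE 0.12). SLC6A18 is known from the kidney tubule, SLC38A11 is a little studied member, and SLC6A7 and SLC36A3 lay under 6.22 in both lines. Those with the largest lower values in AsPC1 were SLC1A3 (-6.10, SE 0.10), SLC6A14 (-6.00, SE 0.16), SLC7A2 (-4.48, SE 0.12), SLC7A8 (-3.23, SE 0.10), SLC38A5 (-2.33, SE 0.16), SLC38A4 (-2.21, SE 0.08), SLC7A6 (-1.13, SE 0.09) and SLC43A1 (-0.91, SE 0.09). The adjusted p was 0.00701 for SLC36A3, 0.00388 for SLC6A18 and 0.000808 or less for the others. SLC1A3, SLC6A14, SLC7A2 and SLC38A4 lay under 6.22 in AsPC1, and SLC1A1, SLC38A11, SLC7A9 and SLC6A18 in BxPC3, so their sizes are uncertain.

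Between the derivatives 10 of the 56 genes were higher in AsPC1-R and 13 lower, where 43.3% of all genes differed, 21.3% and 22% in these directions. At least 2-fold differences were found for 4 and 6 of the genes, against 10.4% of all genes. SLC7A7 (3.65, SE 0.13), SLC6A20 (3.28, SE 0.12), SLC38A11 (1.26, SE 0.13), SLC1A1 (1.02, SE 0.18), SLC7A9 (0.84, SE 0.14) and SLC1A4 (0.54, SE 0.10) led the higher values. SLC1A3 (-5.29, SE 0.10), SLC7A2 (-3.60, SE 0.12), SLC38A4 (-3.56, SE 0.08), SLC38A5 (-3.10, SE 0.16), SLC7A8 (-1.93, SE 0.10) and SLC7A5 (-1.07, SE 0.10) led the lower values. SLC38A11 lay under 6.22 in both derivatives and SLC7A9 in BxPC3-R. SLC1A3, SLC7A2, SLC38A4, SLC38A5 and SLC7A8 lay under it in AsPC1-R. The size of these differences is therefore uncertain. The groups did not overlap for 32 of the 56 genes, 57.1%, against 55.4% of all genes. For SLC1A4 the order of the lines was opposite in the parental lines (-0.33, adjusted p = 0.0135) and in the derivatives (0.54, adjusted p = 0.000424), but the first call was lost without AsPC1 replicate 3 (0.0529) or BxPC3 replicate 3 (0.0575).

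SLC1A5 and SLC38A1, both routes of glutamine uptake, lay closer together in the parental lines than in the derivatives. The difference was -0.21 (adjusted p = 0.0358) for SLC1A5 in the parental lines, a call that any of 5 arrays ended when left out (highest adjusted p 0.125) and that was also lost with the mean over both probe sets (-0.02, adjusted p = 0.847), and -0.78 (SE 0.08, adjusted p = 9.84e-07) in the derivatives. For SLC38A1 it was 0.04 (SE 0.07) and -0.33 (SE 0.07, adjusted p = 0.00213). The test of this widening is the difference between the lines given above for each gene, and it passed for both, for SLC38A1 with the 2 exceptions named there. Other carriers of glutamine varied. For SLC38A2 limma's difference between the lines did not pass (-0.06, adjusted p = 0.75). For SLC38A5 it was -0.77, with the derivatives further apart than the parental lines. For SLC38A7 it was 0.53, with the derivatives closer together, a call that any of 8 arrays ended when left out.

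**Figure D3:**
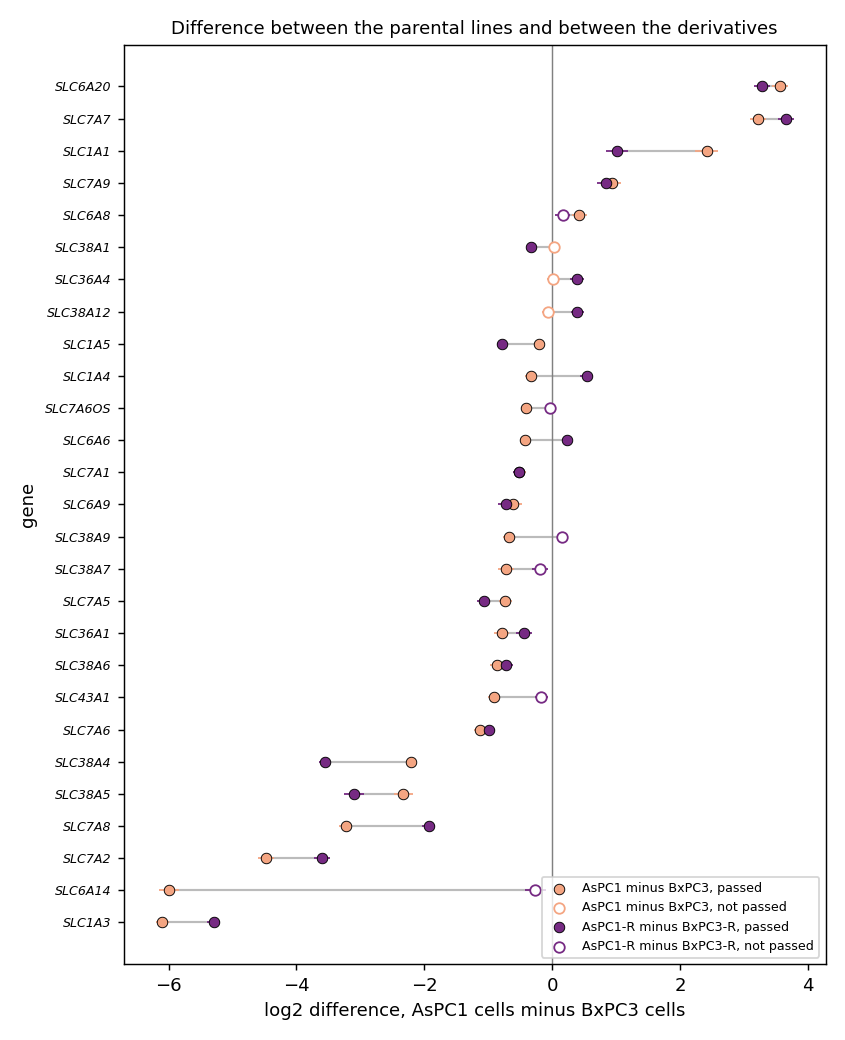
Log2 difference between AsPC1 and BxPC3 (orange) and between AsPC1-R and BxPC3-R (purple) for the 27 expressed genes that passed in either comparison, with bars for the standard error from limma (3 arrays per group). Filled points passed at an adjusted p under 0.05 and grey lines join both values of a gene. SLC6A14 moves from -6.00 to -0.26, while SLC1A3, SLC7A7 and SLC6A20 keep differences of more than 3 in size.

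Many genes of the amino acid response carry the motif TGATGNAA, the core of the C/EBP-ATF response element that ATF4 binds. It was searched on both strands of the RefSeq promoters (GRCh38.p14), which hold 250 bases before and 50 after a gene's start, with TGACNNNGC, the core of the antioxidant response element, and CACGTG, an E-box bound by MYC and by the lysosomal gene factor TFEB. Of the 56 genes, 45 had a promoter in the table, 65 promoters in all. TGATGNAA was found for 5 of the 45 genes, 11.1%, against 4.46% of all genes with a promoter. TGACNNNGC was found for 6, 13.3%, against 16.1%. CACGTG was found for 10, 22.2%, against 8.77%. A gene with more promoters has more room for a match. Counted by promoter, TGATGNAA was in 7.69% against 3.62% of all promoters, TGACNNNGC in 9.23% against 13.3% and CACGTG in 15.4% against 7.26%. Among these genes no match of one motif overlapped a match of another. A match is a description of the letters and not of a bound site.

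The 5 windows with TGATGNAA or its reverse complement are shown because they belong to 5 uptake genes whose changes differ, with the matching letters in capitals, each 30 bases along the gene's own strand.
SLC1A4: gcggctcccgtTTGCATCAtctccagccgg
SLC1A5: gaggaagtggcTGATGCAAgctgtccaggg
SLC1A3: caggaaatgacTGATGCAAagcagggttaa
SLC38A1: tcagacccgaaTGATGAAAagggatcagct
SLC7A1: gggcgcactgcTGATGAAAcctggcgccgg
They lie at chr2:64989381-64989410 on the plus strand (SLC1A4), chr19:46784893-46784922 on the minus strand (SLC1A5, before one of its starts), chr5:36596357-36596386 on the plus strand (SLC1A3, likewise), chr12:46266502-46266531 on the minus strand (SLC38A1) and chr13:29595663-29595692 on the minus strand (SLC7A1). SLC1A4 rose in AsPC1-R alone at the threshold, SLC1A5 rose and SLC1A3 fell in BxPC3-R, and SLC38A1 and SLC7A1 passed in neither derivative. Only 1 of the 5 thus passed in AsPC1-R and 2 in BxPC3-R, and whether the motif goes with a direction was not tested.

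The E-box stood in the promoters of both exchangers SLC7A5 and SLC7A8, which moved apart in BxPC3-R, and in those of the facilitative SLC43A1, which fell there, and of SLC1A5 and SLC38A5, which rose. Their windows are shown with the E-box in capitals, along the gene's own strand, which is the minus strand for all 5.
SLC7A5: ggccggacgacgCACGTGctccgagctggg
SLC7A8: cacaattagaaaCACGTGctcagttccttc
SLC43A1: cagcgggcgagtCACGTGcgcgtgaaactc
SLC1A5: ggcgggagtggtCACGTGgacaggacgggg
SLC38A5: tcctgtagcggaCACGTGgcttgcctggga
They lie at chr16:87869620-87869649 (SLC7A5), chr14:23154505-23154534 (SLC7A8), chr11:57515797-57515826 (SLC43A1), chr19:46787326-46787355 (SLC1A5) and chrX:48470449-48470478 (SLC38A5). The E-box of SLC1A5 lies before a different start of the gene than its TGATGNAA window does. The other genes with an E-box were SLC36A1, with 2 of them, SLC38A7, SLC7A7, SLC1A7 and SLC6A16. Of the 10 genes with an E-box, 7 passed in BxPC3-R, the 5 shown and SLC38A7 and SLC7A7, with 3 higher and 4 lower. The calls of SLC38A7 and SLC7A7 were lost without BxPC3 replicate 2 (adjusted p = 0.111 and 0.129). In AsPC1-R 1 of the 10, SLC36A1, passed. Of the 6 genes with TGACNNNGC, 5 passed in BxPC3-R, 3 higher and 2 lower, and of the 5 with TGATGNAA 2 did. In AsPC1-R 1 gene passed for each of these 2 motifs. Some genes held more than 1 motif. The counts stand beside 30.4% of the 56 genes and 20.8% of all genes in BxPC3-R, and 21.4% and 20.3% in AsPC1-R. Among expressed genes these shares were 45.7% and 28% in BxPC3-R, and 28.6% and 27.4% in AsPC1-R.

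Related genes were described from lists by their counts in the same fit. SLC3A2, the heavy chain that brings SLC7A5, SLC7A6, SLC7A7, SLC7A8 and SLC7A11 to the cell surface, read 7.90, 7.78 and 7.99 in AsPC1, 8.48, 8.60 and 8.50 in AsPC1-R, 8.56, 8.61 and 8.57 in BxPC3 and 8.58, 8.51 and 8.49 in BxPC3-R. AsPC1 lies under the other 3 groups. The rise in AsPC1-R was 0.64 (SE 0.08, adjusted p = 5.16e-05), and the value in BxPC3-R was -0.05 (SE 0.08). SLC7A11 rose by 1.12 (SE 0.09) in AsPC1-R and fell by 0.91 (SE 0.09) in BxPC3-R, from 10.42 to 11.54 and from 11.78 to 10.87. Its directions are thus those of SLC6A14. SLC3A1, the heavy chain of SLC7A9, stayed between 5.39 and 5.96 in all groups, under 6.22.

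**Figure D4:**
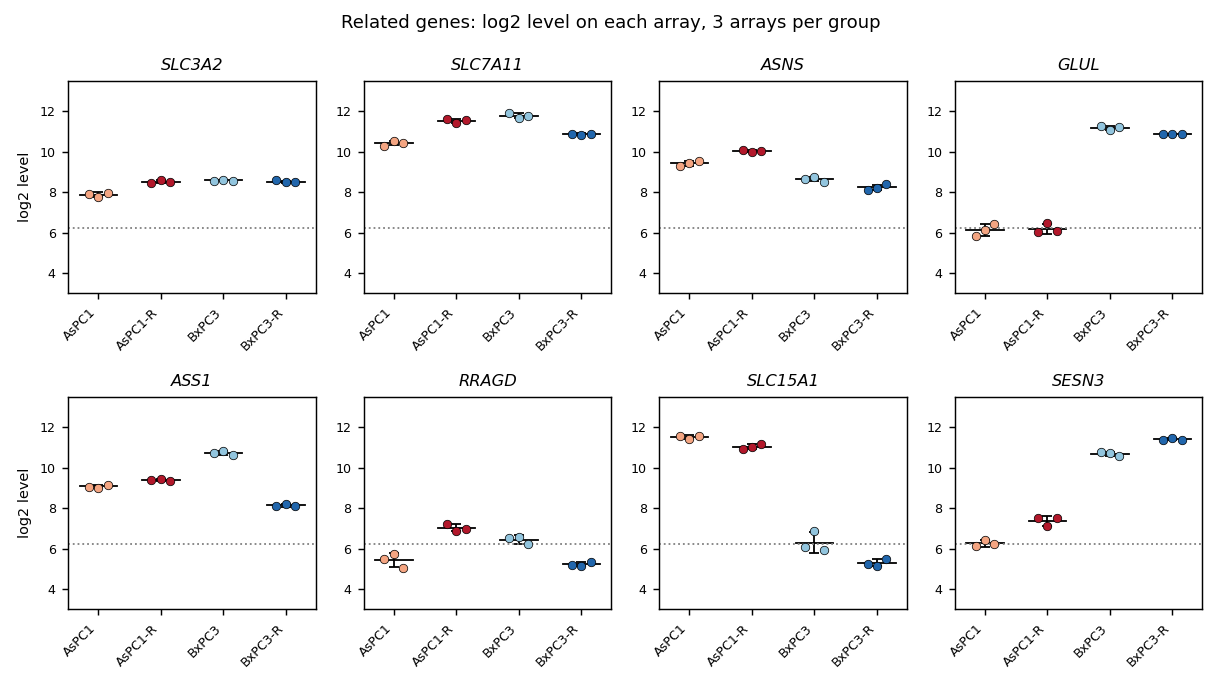
Log2 level on each array (y axis) of 8 related genes in the 4 groups (x axis), with 3 points per group, a bar at the mean and whiskers of 1 SD, and a dotted line at 6.22, the reading of the deleted CDKN2A in BxPC3. SLC3A2 is lowest in AsPC1, ASS1 is far lower in BxPC3-R than in BxPC3, and RRAGD is higher in AsPC1-R than in AsPC1 and lower in BxPC3-R than in BxPC3.

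Of 20 listed genes of the amino acid response, 4 rose and 1 fell in AsPC1-R, and 2 rose and 6 fell in BxPC3-R (1 and 6 without BxPC3 replicate 2), so 25% and 40% changed where 20.3% and 20.8% of all genes did. Of the 20 genes 17 were expressed, and of all expressed genes 27.4% and 28% changed. ATF4 itself passed in neither derivative (10.81, 10.76, 11.02 and 10.83 as group means in AsPC1, AsPC1-R, BxPC3 and BxPC3-R). ASNS, the asparagine synthetase and a direct ATF4 target, read 9.30, 9.45 and 9.54 in AsPC1, 10.07, 10.00 and 10.02 in AsPC1-R, 8.65, 8.74 and 8.53 in BxPC3 and 8.13, 8.19 and 8.39 in BxPC3-R. No 2 groups overlap, and the change was 0.61 (SE 0.09, adjusted p = 0.000387) in AsPC1-R and -0.40 (SE 0.09, adjusted p = 0.00707) in BxPC3-R. The stress gene NUPR1 also rose in AsPC1-R (0.46, SE 0.11) and fell in BxPC3-R (-0.96, SE 0.11). DDIT4, an inhibitor of mTORC1, and the lipoprotein receptor gene VLDLR fell in BxPC3-R (-0.77, SE 0.13, and -0.70, SE 0.12). Of 19 cytosolic aminoacyl-tRNA synthetase genes, 2 rose and 1 fell in AsPC1-R, led by WARS1, the interferon-inducible tryptophanyl-tRNA synthetase (0.78, SE 0.07). In BxPC3-R 3 rose, led by FARSB (0.48, SE 0.08), and without BxPC3 replicate 2 only 1 did. The share was 15.8% in both, under that of all genes.

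Of 11 genes of serine, glycine and proline synthesis, 1 rose and 2 fell in AsPC1-R (27.3%) and 1 rose in BxPC3-R (9.09%). The shares in this paragraph stand beside 20.3% and 20.8% of all genes, and each list is short. The proline synthesis gene ALDH18A1 fell in AsPC1-R (-0.80, SE 0.11), as did SHMT2 of mitochondrial glycine synthesis (-0.56, SE 0.12). Of 9 genes of glutamine, glutamate and aspartate metabolism, 2 rose and 1 fell in AsPC1-R (33.3%) and 1 fell in BxPC3-R (11.1%). That one was ASS1, which makes the arginine precursor argininosuccinate. It read 10.73, 10.83 and 10.61 in BxPC3 and 8.13, 8.19 and 8.08 in BxPC3-R, with no overlap, a fall of -2.59 (SE 0.08, adjusted p = 2.76e-10), and its means in AsPC1 and AsPC1-R were 9.07 and 9.39. Glutamine synthetase, GLUL, read 5.83, 6.11 and 6.43 in AsPC1, 6.02, 6.48 and 6.09 in AsPC1-R, 11.26, 11.09 and 11.21 in BxPC3 and 10.86, 10.88 and 10.86 in BxPC3-R. Both AsPC1 groups lie near 6.22, and the parental lines differed by -5.06 (SE 0.14, adjusted p = 1.51e-12). Of 10 genes of branched-chain amino acid breakdown, 1 fell in AsPC1-R, 10%, and 2 rose and 1 fell in BxPC3-R, 30% (1 and 2 without BxPC3 replicate 2). ACADSB, the short and branched-chain acyl-CoA dehydrogenase, fell in both (-0.58, SE 0.09, and -0.36, SE 0.09), the second call lost without BxPC3-R replicate 1 (adjusted p = 0.0556).

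Of 27 genes through which mTORC1 senses amino acids, 5 rose and 1 fell in AsPC1-R and 3 rose and 6 fell in BxPC3-R (3 and 5 without BxPC3 replicate 2), 22.2% and 33.3% against 20.3% and 20.8% of all genes. All 27 were expressed, and of all expressed genes 27.4% and 28% changed. RRAGD, a GTPase that recruits mTORC1 to the lysosome, read 5.51, 5.72 and 5.05 in AsPC1, 7.23, 6.88 and 6.97 in AsPC1-R, 6.53, 6.59 and 6.21 in BxPC3 and 5.19, 5.16 and 5.36 in BxPC3-R. Each derivative is separate from its parent, in opposite directions, with changes of 1.60 (SE 0.16, adjusted p = 5.84e-06) and -1.21 (SE 0.16, adjusted p = 8.32e-05) to or from levels under 6.22. SESN3, a sestrin that restrains mTORC1, rose in both (1.12, SE 0.12, and 0.71, SE 0.12). Of 23 other amino acid and peptide carriers, SLC3A1, SLC3A2 and SLC7A11 among them, 6 rose and 0 fell in AsPC1-R, and 1 rose and 5 fell in BxPC3-R, 26.1% in each, near the 20.3% and 20.8% of all genes. Without BxPC3 replicate 2 these counts were 6 and 1, and 1 and 4. The intestinal peptide carrier SLC15A1 read 6.08, 6.89 and 5.93 in BxPC3, with replicate 2 the highest, and 5.25, 5.15 and 5.50 in BxPC3-R. Its fall was -1.0 (SE 0.19, adjusted p = 0.00164), and -0.71 (SE 0.12, adjusted p = 0.00102) without that array.

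Markers of other cell types moved too, while the mean of a list on each array stayed between 5.82 and 6.90 for fibroblasts, 5.46 and 6.81 for endothelium and 5.34 and 5.99 for leukocytes. Over all genes 20.3% changed in AsPC1-R and 20.8% in BxPC3-R. In BxPC3-R the endothelial markers CDH5 and PECAM1 were lower (-2.67, SE 0.15, and -1.24, SE 0.13) and the fibroblast markers LUM and PDGFRA higher (1.53, SE 0.22, and 1.21, SE 0.13), 2 of 4 and 2 of 7 markers. In AsPC1-R 1 of 7 fibroblast markers, LUM, was lower (-1.03, SE 0.22), and 1 of 4 endothelial markers, PECAM1, was higher (0.66, SE 0.13). Of 5 leukocyte markers, CD68 was higher in AsPC1-R (0.72, SE 0.09) and lower in BxPC3-R (-0.72, SE 0.09), where CD3E was also lower (-0.47, SE 0.13), a call that leaving out any of 3 arrays ended (highest adjusted p 0.0847). Of 4 neuronal and glial markers 1, SNAP25, was lower in BxPC3-R (-0.41, SE 0.11), with 3 such arrays too (highest adjusted p 0.0749). Of 8 ductal markers, KRT8 (1.12, SE 0.13), KRT18 (0.78, SE 0.12) and KRT7 (0.46, SE 0.11, lost without BxPC3 replicate 1) rose and MUC1 (-0.75, SE 0.10) fell in BxPC3-R. In AsPC1-R, MUC1 rose (0.72, SE 0.10) and KRT18 (-0.51, SE 0.12) and CDH1 (-0.46, SE 0.08) fell. No acinar or endocrine marker passed in either derivative. Whether any of these goes with the carriers was not tested.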

How the data were processed

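The authors deposited a log2 level for each probe set, made with RMA in Affymetrix Expression Console, per the submitters' processing notes. RMA corrects background, brings the arrays to one distribution and summarises probes, so no measure of depth remains, and precision is limited by how many arrays there are. Software versions, like the annotation's genome build, were not given in the sources used here.

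Of 33297 probe sets, the 19460 with 1 gene symbol were kept, and 18417 genes remained. Left out were 1754 with several symbols and 12083 not listed in the platform's annotation or without a symbol there. All 12 arrays entered 1 fit with lmFit and eBayes of limma 3.58.1 (R 4.3.3), with 8 residual and 5.47 prior degrees of freedom, two-sided, with Benjamini-Hochberg adjustment over all genes. SE is limma's standard error. The pipeline was tested on simulated data of 18417 genes. In these, 100 genes changed 1.5-fold and 100 changed 2-fold in AsPC1-R, fewer than passed in the real data. Of these, 67% and 94% passed in AsPC1-R minus AsPC1, and 36% and 76% in the difference between the lines. A difference that did not pass is therefore not shown to be an equal change. Carrier genes called with at least 1.5-fold, and SLC1A5, SLC7A5, SLC38A1 and SLC38A2, are given on every array. Of the related lists the fixed genes and up to 3 with the largest change were eligible. The genes and lists were chosen with earlier results of these data known. RefSeq promoters gave the sequences, and protein sequences were not used here.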

Additional observations from a re-analysis of the deposited data

Results flagged for a closer look

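For 20 of the 56 genes, 35.7% against 25.4% of all genes, the change in AsPC1-R differed from the change in BxPC3-R by limma's test of that difference (change in AsPC1-R minus change in BxPC3-R, log2, adjusted p under 0.05). Without BxPC3 replicate 2 it did so for 16 genes, 28.6% against 22.7% of all genes, 9 higher and 7 lower. The values that follow are from all 12 arrays. The amino acid carrier SLC6A14 was at 5.74, the light chain SLC7A8 at 1.30, the arginine carrier SLC7A2 at 0.88, the neutral exchanger SLC1A4 at 0.87, the lysosomal SLC38A9 at 0.83 and the glutamate carrier SLC1A3 at 0.81. SLC43A1 was at 0.74, the taurine carrier SLC6A6 at 0.66, SLC38A7 at 0.53, SLC38A12 at 0.46 and SLC7A6OS at 0.38. In the other direction were the glutamate carrier SLC1A1 at -1.40, SLC38A4 at -1.35, SLC38A5 at -0.77, SLC36A3 at -0.62, the glutamine exchanger SLC1A5 at -0.58, SLC38A11 at -0.55, the serotonin carrier SLC6A4 at -0.42, the GABA carrier SLC6A11 at -0.42 and SLC38A1 at -0.36. SLC36A3 and SLC6A4 lay under 6.22 in all groups. SLC7A2, SLC1A3 and SLC38A4 lay under it in both AsPC1 and AsPC1-R, where a change may not be measured in full. SLC6A14, SLC7A8, SLC1A4, SLC1A1, SLC38A5 and SLC38A11 lay under it in at least 1 group. The size of all these differences is therefore uncertain. For SLC38A11 any of 9 arrays ended the call when left out (highest adjusted p 0.121), and for SLC38A7 (0.0994), SLC38A12 (0.082), SLC6A11 (0.0897) and SLC6A4 (0.0809) any of 8 did. SLC38A1 lost its call without BxPC3-R replicate 1 (0.0502) and with a further quantile normalization (0.0749).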

How the results depend on the processing

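The alternatives were an adjusted p under 0.01, a fit without dim genes, a mean over each gene's probe sets, a block for replicate number, median centring, a further quantile normalization, robust eBayes with a trend, fits of the compared groups alone, and a fit without each of the 12 arrays. No called gene changed direction in any of them. Of the calls, 10 of 12 in AsPC1-R, 12 of 17 in BxPC3-R, 11 of 20 in the difference between the lines, 26 of 30 between the parental lines and 21 of 23 between the derivatives passed in every alternative. The genes lower in the difference between the lines were 9, and 3 at an adjusted p under 0.01. Leaving out 1 array gave 5 to 11, with 5 without BxPC3-R replicate 1. The genes higher in AsPC1 than in BxPC3 were 11, and 6 with dim genes left out, which tests fewer genes. Leaving out 1 array moved the other counts to 7 to 9 higher and 3 to 6 lower in AsPC1-R, 6 to 9 and 6 to 10 in BxPC3-R, 9 to 12 higher in the difference between the lines, and 17 to 19 lower in AsPC1. The labels number replicates alike in all groups, but same-numbered arrays did not deviate together (correlations of -0.239 to 0.171), so the numbers were not taken as pairs. With replicate number as a block 4 of 102 calls were lost: SLC6A7 in AsPC1-R, SLC38A7 and SLC6A11 in the difference between the lines, and SLC1A5 between the parental lines. With the block 8 genes were higher and 4 lower in AsPC1-R and 8 and 9 in BxPC3-R.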
